A study of Mus musculus with 15 samples.

Results

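The genes of the proteasome were followed through spermatogenesis in single-cell RNA sequencing of mouse testis. Members were all genes of the deposited tables whose symbol starts with Psma, Psmb, Psmc, Psmd or Psme followed by a digit, leaving out symbols ending in ps or os, which gave 45 of 32285 genes. By role they were 8 alpha and 7 beta subunits of the 20S core, 4 immunoproteasome or thymoproteasome beta subunits, 6 ATPases and 11 non-ATPase subunits of the 19S cap, 3 chaperones of 19S assembly, 5 genes of proteasome activators, and Psmc3ip, a factor of meiotic recombination that the naming rule takes in although it is no subunit.

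Each of the 15 libraries came from 1 testis of 1 male DBA/2J mouse, with 3 libraries in each of 5 groups. Group T received JQ1, an inhibitor of the BET bromodomain proteins that include the testis protein BRDT, at 50 mg/kg daily for 3 wk and was taken at once at 10 wk of age. Group VC-T received vehicle and was 10 wk old, R was taken 6 wk after the last JQ1 dose at 16 wk, VC-R was its vehicle group at 16 wk, and UC was untreated at 15 wk. T and UC therefore also differed in age, and treatment and age cannot be told apart in that comparison.

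The proteasome is the main protease of ubiquitin-tagged proteins. Its 20S core is a barrel of alpha and beta rings, with the catalytic sites on beta subunits, and the 19S cap recognises, unfolds and feeds in the substrates. Male germ cells are known for variants of this machine: Psma8 is a testis counterpart of the alpha subunit Psma7, and Psme4 encodes PA200, an activator linked to the degradation of acetylated histones when chromatin is remodelled in spermatids.

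The libraries held 3407 to 14221 cell barcodes and 9673587 to 98724984 UMIs, and 72362 cells were kept. Levels below are UMIs summed over the cells of a class in a library, given as counts per 1000000 UMIs of that sum (CPM). Since 3′ libraries give 1 tag per transcript, CPM needs no division by gene length. Rebuilt clusters, made without the member genes, gave 4 germ cell classes named from markers. They held 1998 cells for the spermatogonia-like class, 17283 for the spermatocyte-like class, 20518 for the spermatid-like class and 23319 for the spermatozoa-like class. At most 0.554% of the barcodes of a library were shared with another. VC-T 1 stood apart from its label: only 3.08% of its spermatid-like cells lay in clusters 14 and 16 of the pseudotime order (22.5 and 47.5% in VC-T 2 and 3), and its Prm1, Prm2, Tnp1 and Tnp2 sum there was 1335 CPM (61260 and 56380 CPM). It was left out of the control libraries. The other 8 control libraries are those of UC and VC-R together with VC-T 2 and VC-T 3.

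Promoter windows are shown for 3 members whose levels moved at different stages. Psma7 fell early, whereas Psma6 and Psme3 rose late. The sequences are RefSeq windows on GRCm38.p6, from 250 bases before to 50 after an annotated start, 5′ to 3′ on the gene's strand, and capitals mark CCAAT on either strand.
Psma7, chr2:180042415-180042714, minus strand: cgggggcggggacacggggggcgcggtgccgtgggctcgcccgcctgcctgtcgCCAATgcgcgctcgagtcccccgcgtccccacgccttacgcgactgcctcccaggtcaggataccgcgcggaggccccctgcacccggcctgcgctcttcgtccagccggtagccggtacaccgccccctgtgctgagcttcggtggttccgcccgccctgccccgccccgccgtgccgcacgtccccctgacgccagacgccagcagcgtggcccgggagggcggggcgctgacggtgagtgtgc
Psma6, first start, chr12:55383972-55384271, plus strand: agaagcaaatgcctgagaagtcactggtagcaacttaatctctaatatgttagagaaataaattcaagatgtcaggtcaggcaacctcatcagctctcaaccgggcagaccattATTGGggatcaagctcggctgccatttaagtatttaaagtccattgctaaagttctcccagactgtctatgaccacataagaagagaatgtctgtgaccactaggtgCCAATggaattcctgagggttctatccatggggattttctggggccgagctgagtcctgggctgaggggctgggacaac
Psma6, other start, chr12:55398575-55398874, plus strand: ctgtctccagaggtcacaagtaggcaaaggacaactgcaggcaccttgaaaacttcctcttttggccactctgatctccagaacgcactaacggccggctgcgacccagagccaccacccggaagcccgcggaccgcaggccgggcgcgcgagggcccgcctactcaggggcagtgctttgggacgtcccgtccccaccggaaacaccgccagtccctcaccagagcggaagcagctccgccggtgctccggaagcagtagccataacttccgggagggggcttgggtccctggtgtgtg
Psme3, chr11:101315963-101316262, plus strand: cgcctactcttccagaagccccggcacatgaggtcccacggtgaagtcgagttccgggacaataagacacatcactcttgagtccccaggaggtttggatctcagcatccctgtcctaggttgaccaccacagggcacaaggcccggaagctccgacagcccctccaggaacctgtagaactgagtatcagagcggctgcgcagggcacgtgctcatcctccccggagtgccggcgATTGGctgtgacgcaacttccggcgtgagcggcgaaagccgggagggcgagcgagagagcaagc

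A window was found for 38 of the 45 members. The antioxidant response element TGACNNNGC, searched on both strands, was in the windows of 6 of them (15.8%) against 14% of 27025 genes. CCAAT was in those of 15 (39.5%) against 41.1% of all genes. The cyclic AMP response element TGACGTCA was in 0 of them against 2.03% of all genes. These matches describe letters in a window only.

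Along the germ line of control mice, the proteasome genes did not move as a block. The summed level of the 45 members was 9875 CPM in the spermatogonia-like cluster, between 6494 and 8082 CPM in the spermatocyte-like clusters, and 2988 to 3537 CPM over the control libraries in spermatozoa-like cells. Against that fall, Psma6, an alpha subunit of the core, rose to be the most abundant member, and Psme3, which encodes the nuclear activator PA28 gamma, dipped and rose again, to 207 ± 11.6 CPM in the last spermatid-like cluster. Within the spermatozoa-like class it went from 186 ± 12.5 CPM in cluster 18 down to 8.26 ± 7.20 CPM in cluster 23 (8 control libraries each). CPM is a share of a class's UMIs, so a lower value cannot be told apart from more RNA of other genes.

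**Figure D1:**
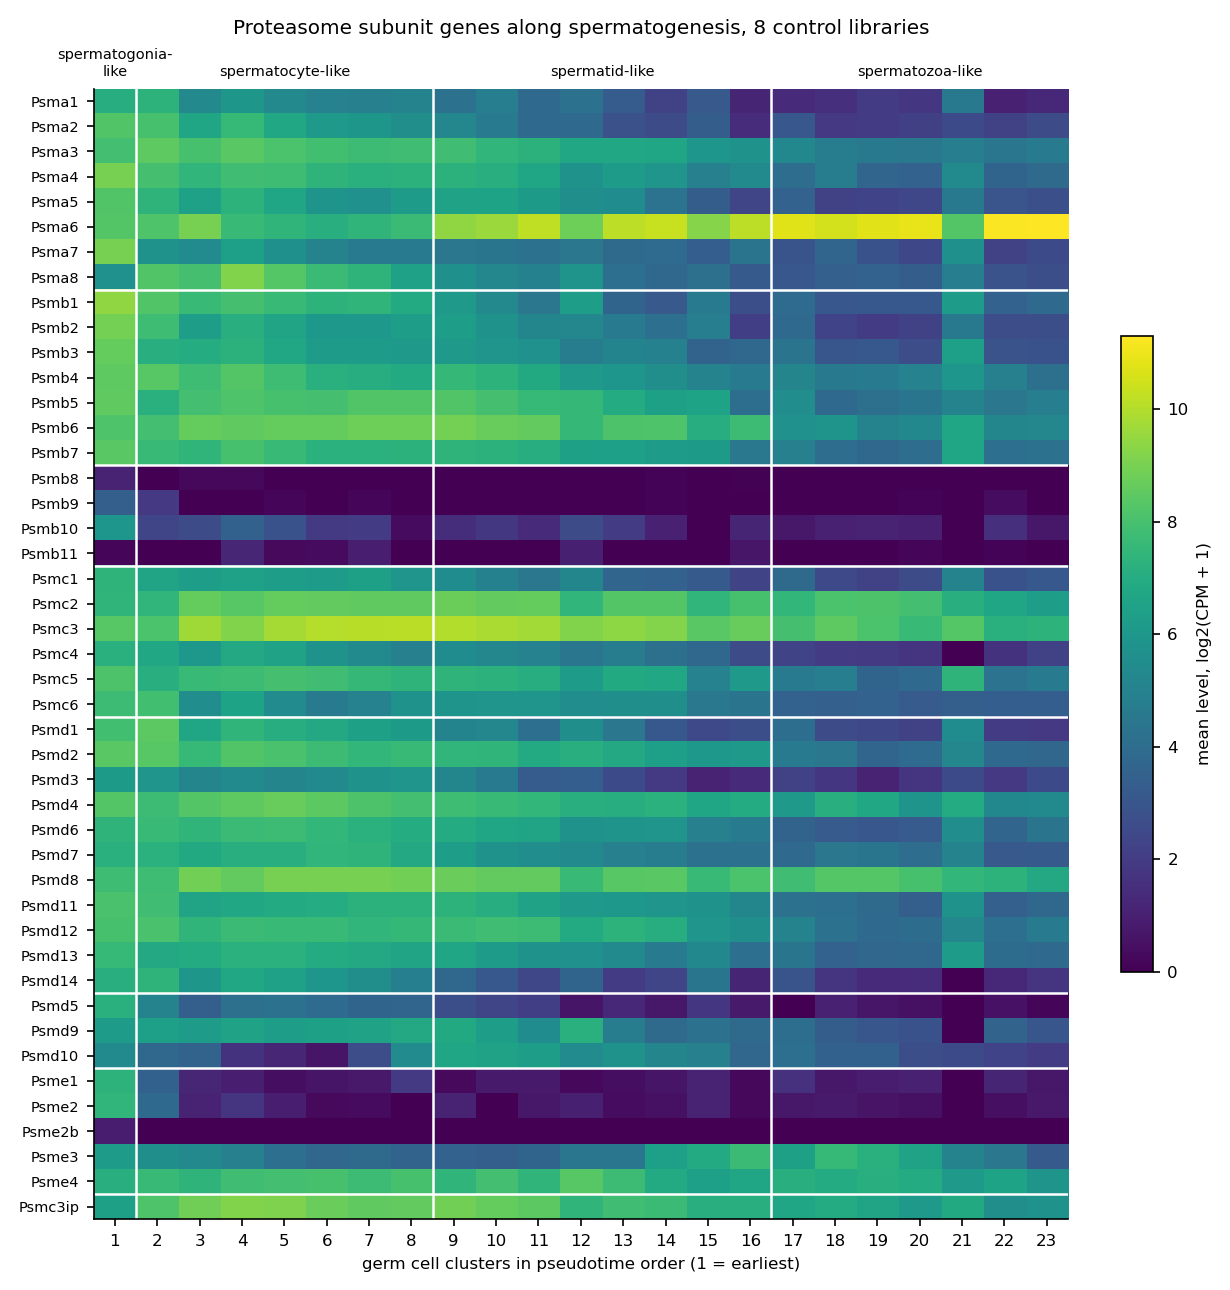
Mean level of each member (rows, by role) in 23 germ cell clusters in pseudotime order (columns), as log2(CPM + 1) over the control libraries with the cluster. Most rows darken from left to right, Psma6 brightens to 2523 CPM in the last cluster, and cluster 21 rests on 65 cells of 3 libraries.

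The alpha subunit pair Psma7 and Psma8 exchanged places at the entry into meiosis. Psma7 was at 499 ± 77.6 CPM (SD, n = 8 control libraries) in spermatogonia-like cells and at 43.3 ± 7.68 CPM in spermatocyte-like cells. Psma8 was at 52.1 ± 11.1 CPM and 270 ± 28.6 CPM in the same classes. The lowest and highest control libraries were 351 and 590 CPM against 29.8 and 54.4 CPM for Psma7, and 37.7 and 73.3 CPM against 246 and 327 CPM for Psma8, so the classes did not overlap for either gene. Psma8 made up 9.45% of the UMIs of the pair in the spermatogonia-like cluster and 79.0 to 87.7% in the spermatocyte-like clusters of the controls, and its level was highest, 576 CPM, in the fourth cluster in pseudotime. Both genes were low afterwards, at 17.5 ± 2.74 and 22.7 ± 2.33 CPM in spermatid-like cells. In Sertoli-like cells, which should lack Psma8, 21.6 ± 14.5 CPM (n = 8) were found, from 0 to 27 UMIs per control library. The Psma8 level in spermatid-like and spermatozoa-like cells was thus not clearly above that of cells that should lack it. How much of it was background RNA was not measured. Some Sertoli-like clusters also had a positive score for germ cell markers, so that class is not a clean reference.

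**Figure D2:**
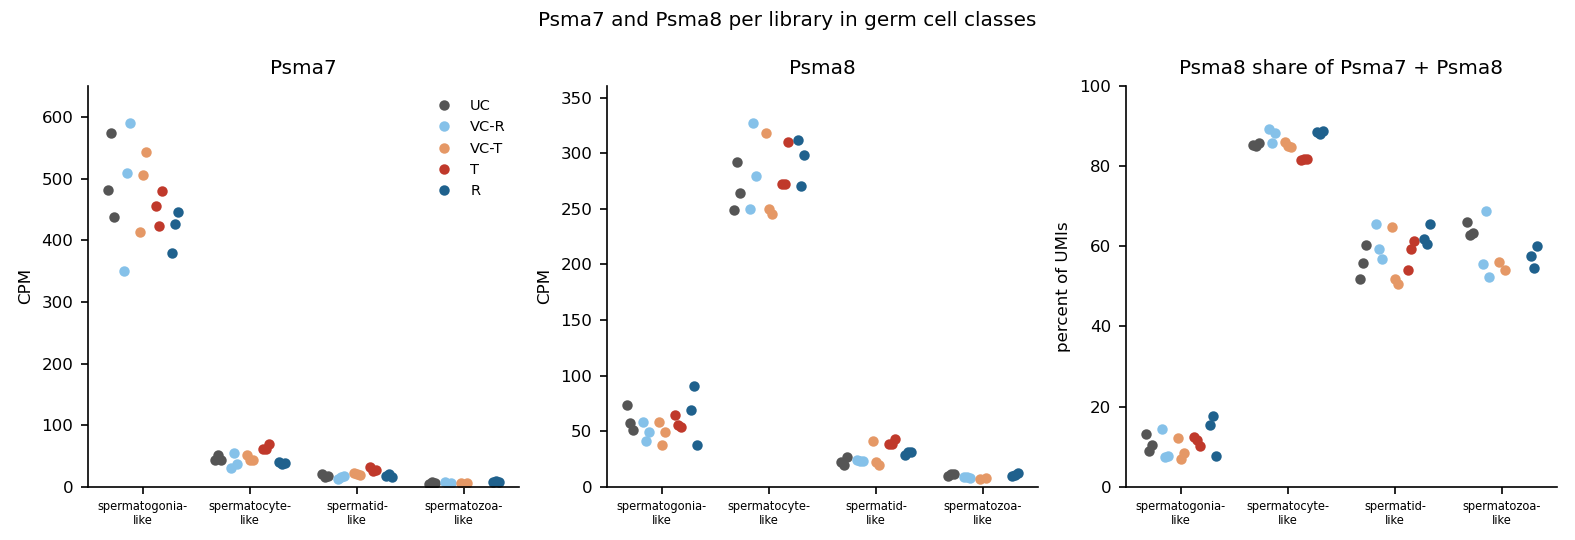
Level of Psma7 and Psma8 (CPM) and the Psma8 share of their joint UMIs (percent), 1 point per library, by germ cell class and group. Psma7 is high in spermatogonia-like cells and Psma8 in spermatocyte-like cells in every group, and the 3 T libraries have the lowest Psma8 shares in spermatocyte-like cells.

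Between spermatogonia-like and spermatocyte-like cells, 18 members rose and 18 fell of 42 tested (edgeR's quasi-likelihood test with the library as a block, TMM scaling, Benjamini-Hochberg adjusted p under 0.05), where 79% of all genes were called, 41.1% as higher and 37.9% as lower. Past a log2 fold change of 1 in size were 20 members, where 62.9% of all genes were. The rises were led by Psma8 (log2 fold change 3.27, SE 0.12), Psmc3ip (3.18), the ATPases Psmc3 (2.21) and Psmc2 (1.94) and the lid subunit Psmd8 (1.84). Psmc3 went from 327 ± 38.4 to 892 ± 54.3 CPM, with no overlap of the control libraries. Psme4 also rose (1.53), from 136 ± 19.9 to 232 ± 31.2 CPM. The falls were led by the PA28 beta gene Psme2 (−6.00) and the PA28 alpha gene Psme1 (−5.91), the immunoproteasome genes Psmb9 (−5.07) and Psmb10 (−2.90), and Psma7 (−2.71). Psmb9 had only 0 to 2 UMIs per control library in spermatocyte-like cells, too few to read the size of its fall. Under TMM, 7 of 11 19S non-ATPase subunits rose and 1 fell, but with library totals 2 rose and 7 fell. Of the 8 alpha subunits, 3 rose and 5 fell under TMM, and 1 rose and 6 fell with library totals. Scaling to library totals in place of TMM moved the median of all genes to −0.66 and gave 8 rises and 30 falls, where 28.2% of all genes rose and 52% fell. Of the members, 8 rises and 18 falls were called both ways, among them every gene just named, and 6 members were called in opposite directions.

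Between spermatocyte-like and spermatid-like cells, 4 members rose and 32 fell of 40 tested, where 91% of all genes were called, 44% as higher and 47% as lower. Psmd10, a chaperone of 19S assembly known as gankyrin, rose from 5.94 ± 2.44 to 53.1 ± 5.51 CPM (log2 fold change 3.47). Psma6 rose from 219 ± 78.9 to 1077 ± 58.3 CPM (2.68) and Psme3 from 20.1 ± 5.97 to 76.4 ± 10.2 CPM (2.26). The fourth, Psmc2, rose by 0.18 under TMM and was called as falling with library totals. Falls were led by Psmd14, the deubiquitinating lid subunit (−3.61), Psma8 (−3.25), Psmb1 (−2.79), Psma2 (−2.78) and the 19S chaperone Psmd5 (−2.51), which were also called as falling with library totals. Psmd14 was at 73.4 ± 8.80 CPM and then 4.91 ± 1.38 CPM. Psma7 (−0.98), Psmc3ip (−0.47) and Psme4 (−0.23) fell as well. Psmb10 (−1.35) and Psme1 (−0.96) were also called as falling. They had only 4 to 12 and 0 to 6 UMIs per control library in spermatid-like cells, too few to read the size of the fall. Psma6 in spermatocyte-like cells was 411 CPM in UC 1 and between 176 and 230 CPM in the other control libraries, and UC 1 also had the highest Prm1, Prm2, Tnp1 and Tnp2 sum there, 25860 CPM against 4356 to 8945 CPM. The part of those transcripts in the Psma6 value was not tested.

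Between spermatid-like and spermatozoa-like cells, 8 members rose and 22 fell of 39 tested, where 79.5% of all genes were called, 36.2% as higher and 43.3% as lower. Psma6 (log2 fold change 2.36) and Psme3 (1.94) rose under both scalings, to 1931 ± 129 and 102 ± 12.2 CPM. The next by size under TMM were Psmb10 (1.13), Psmd8 (1.10) and Psme4 (1.10), but Psmd8 and Psme4 were called as falling with library totals, and Psme4 went from 158 ± 22.2 to 119 ± 21.1 CPM. Psmb10 was at 1.53 and 1.18 CPM, too low to read. The falls, all called under both scalings, were led by Psmd12 (−1.68), Psma5 (−1.67), the ATPase Psmc4 (−1.55), the catalytic beta subunit Psmb6 (−1.51) and Psmd2 (−1.36). With library totals 2 members rose and 36 fell, where 11.5% of all genes rose and 80.8% fell and the median of all genes stood at −1.70.

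Genes that work with the proteasome were taken from a list of 32. In spermatocyte-like cells the ubiquitin gene Ubb rose from 1765 ± 177 to 5959 ± 775 CPM, with Ngly1 (log2 fold change 2.18), and Nfe2l2 (−5.18) and Txnl1 (−1.75) fell. In spermatid-like cells Ngly1 (1.61) rose, whereas the assembly factor Pomp (−3.43), Rps27a (−3.25) and Vcp (−2.33) fell. In spermatozoa-like cells Ubqlnl (3.80) and Psmf1 (2.75) rose and Sem1 (−1.87), Psmg2 (−2.49) and Ubqln1 (−1.88) fell. Psmf1 encodes PI31, a regulator that binds the 20S core, and was at 430 ± 45.5 and 1015 ± 137 CPM in the last 2 classes.

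The immunoproteasome genes were nearly silent in germ cells after the spermatogonia. Psmb8 was at 196 ± 120 CPM in macrophage-like cells (n = 4 libraries, 20 UMIs in all), at 35.8 ± 39.4 CPM in Leydig-like cells (n = 5), and had 0 UMIs in the spermatozoa-like cells of the 8 control libraries. Psmb9 was at 54.0 ± 40.2 CPM in macrophage-like, 28.9 ± 11.5 CPM in Sertoli-like and 9.76 ± 5.74 CPM in spermatogonia-like cells. Psmb10 was the exception among spermatogonia-like cells, with 59.8 ± 22.5 CPM. Psme1 reached 278 ± 131 CPM in Leydig-like and 156 ± 42.4 CPM in spermatogonia-like cells, and Psme2 186 ± 68.5 and 172 ± 20.1 CPM in the same classes, whose libraries overlapped for both genes. Their mean levels were under 2 CPM in each later germ cell class. The thymoproteasome gene Psmb11 had 73 UMIs and Psme2b 19 UMIs in all kept cells, and Psme2b is a near copy of Psme2, so reads could be split between them. The control libraries behind these values held only 10 to 16 macrophage-like or 14 to 17 Leydig-like cells each.

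**Figure D3:**
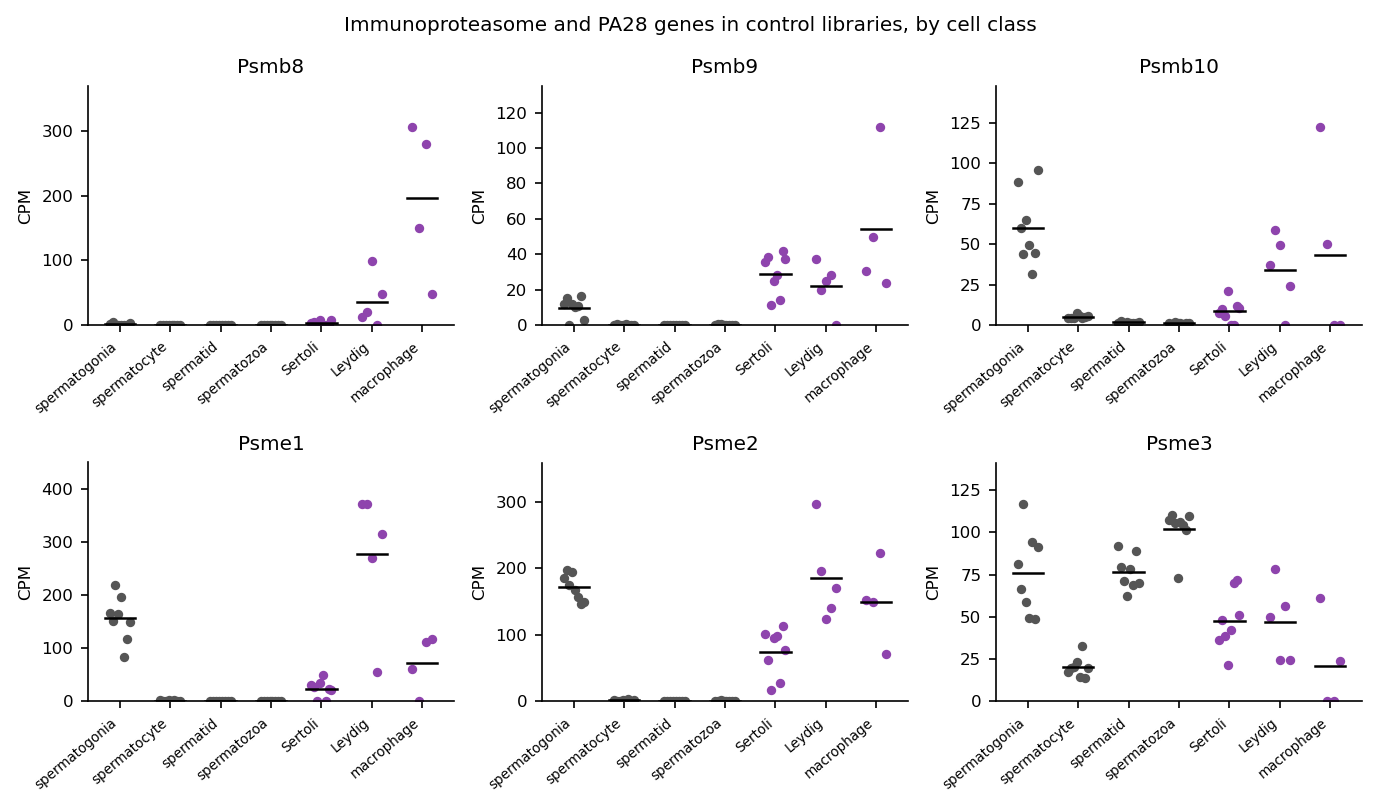
Level (CPM) of 3 immunoproteasome and 3 PA28 genes in the control libraries, 1 point per library with at least 10 cells of the class, lines at the means, germ cells in grey and somatic cells in purple. Psme1 and Psme2 are present in spermatogonia-like and somatic cells and near 0 in later germ cells, where Psme3 rises to 102 CPM.

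JQ1 was compared with untreated testis to ask which members differed at the end of dosing. In spermatogonia-like cells 0 of 41 tested members were called by edgeR (3 at an unadjusted p under 0.05, 0 by DESeq2), where edgeR called 1.18% and DESeq2 0.243% of all genes. In spermatocyte-like cells 0 of 39 were called by edgeR (9 at an unadjusted p under 0.05, 1 by DESeq2), where edgeR called 1.51% and DESeq2 3.22% of all genes. These shares are for adjusted p. The share of all genes at an unadjusted p under 0.05 was not counted, here or below. The unadjusted counts are therefore not read as results about the members. Psma7 in spermatocyte-like cells was 61.8, 60.4 and 69.0 CPM in T and 43.0, 51.2 and 43.8 CPM in UC, so the groups did not overlap. Its log2 fold change was 0.36 (SE 0.10, edgeR adjusted p = 0.107), and the fold change was 0.43 and past the threshold with VC-T 2 and VC-T 3 as the controls. Psma8 was 272, 273 and 310 CPM in T and 249, 292 and 264 CPM in UC, which overlap. The Psma8 share of the pair was 81.7 ± 0.19% in T and 85.4 ± 0.35% in UC (3 libraries each, exact permutation test, two-sided, p = 0.1, the smallest this design allows). The VC-T libraries lay between 84.8 and 86.1%. This test was chosen after the values were seen.

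In spermatid-like cells of T, 23 members were higher and 3 lower of 38 tested (edgeR), where 53.6% of all genes were called, 25% as higher and 28.6% as lower. Past a log2 fold change of 1 in size were 3 members, where 19% of all genes were. The median over the members was 0.31, against 0.05 over all genes. These cells were spread differently over the pseudotime order than in UC. Of them 2.32 to 7.11% were in its clusters 14 and 16 against 33.7 to 44.7% in UC (cluster 15, one of 3 clusters of low UMIs, was not counted). Their sum of 5 spermatozoa markers was 2972 to 3309 CPM against 5597 to 6298 CPM. Pseudotime and markers are themselves read from expression. An earlier stage and expression changed by JQ1 therefore cannot be told apart, also where cells are matched on pseudotime. With cells matched on pseudotime, 2 members were higher and 3 lower of 37, where 4.8% of all genes were higher and 6.68% lower. The higher ones were Psmc1 and Psma7, and the lower ones Psma6, Psmb6 (−0.25) and Psmd6 (−0.36), of which Psmb6 (−0.14) and Psmd6 (0.03) were not called with all cells. In CPM over all cells, Psmb6 was 357, 390 and 384 in T and 324, 335 and 357 in UC. Psmd6 was 89.9, 91.9 and 89.4 in T and 79.3, 68.4 and 70.2 in UC. Neither was lower in T on that scale. Against all 3 VC-T libraries 0 members were called by edgeR (13 at an unadjusted p under 0.05), and so were 0% of all genes. With VC-T 2 and VC-T 3 as the controls, 25 members were higher and 2 lower, where 19.5% of all genes were higher and 27% lower.

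Among the ATPases, Psmc1 was 51.4, 46.6 and 37.3 CPM in T and 15.0, 14.6 and 16.9 CPM in UC. Its log2 fold change was 1.27 (SE 0.14, edgeR adjusted p = 3.36e-06), and 0.76 (p adjusted by edgeR 0.0124) with matched cells, where it was still called. Psmb1, a core beta subunit, was 49.9, 54.4 and 45.0 CPM against 23.3, 16.8 and 25.1 CPM, without overlap. Its log2 fold change was 0.91, and 0.31 and not called with matched cells. The chaperone Psmd9 (0.63), the base subunit Psmd1 (0.70) and the lid subunit Psmd3 (0.82) were also higher, and none of these 3 was called with matched cells. Psma7 (0.41) was higher too, and was called with matched cells at 0.83. It was low as well, with 32.3, 26.1 and 27.4 CPM in T and 20.8, 15.6 and 17.6 CPM in UC. How much of the Psma7 level was background RNA was not measured. Psma8 was called at 0.47 but not with matched cells (0.09). Since its level in spermatid-like cells of the controls was not clearly above that in Sertoli-like cells, this is not read as a difference in its expression.

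The most negative fold change in T was that of Psme3, with 21.3, 18.7 and 17.6 CPM against 68.7, 89.2 and 70.1 CPM in UC. Its log2 fold change was −2.24 (SE 0.14, edgeR adjusted p = 5.58e-09), and with matched cells it was 0.39 and not called. VC-T 1, the vehicle library that stood apart, had 13.5 CPM. Psma6 was 826, 842 and 834 CPM in T and 1131, 1149 and 998 CPM in UC, which do not overlap. Its log2 fold change was −0.68, and −0.20 with matched cells, where it was still called. Psmd8 was called lower under TMM (−0.18) but had a positive value of 0.11, not called, with library totals. Psme4 (0.13) and Psmc3ip (0.05) were not called. Of the 26 called members, 3 were called in the same direction with matched cells (Psma6, Psma7 and Psmc1), and 8 took the opposite sign. The shares of all called genes that kept their call or changed sign were not counted, so these numbers are not read as particular to the members.

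**Figure D4:**
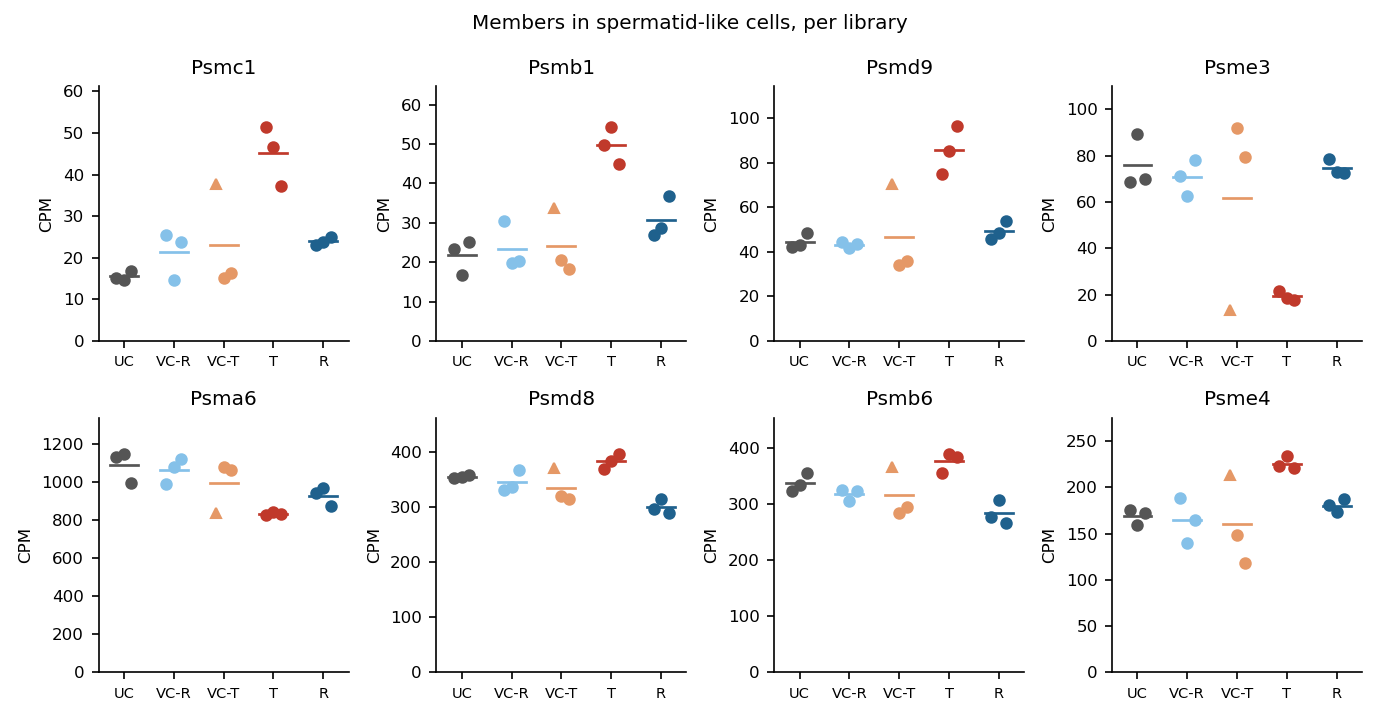
Level (CPM) of 8 members in spermatid-like cells, 1 point per library, lines at group means (VC-T 1 included), with VC-T 1 as a triangle. VC-T 1 lies beside the T libraries for Psme3 (13.5 CPM), Psmc1 and Psmd9, and Psmd8 is higher in T on this scale although lower in the TMM fit.

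By role, 8 of 11 19S non-ATPase subunits, 6 of 8 alpha subunits, 4 of 7 beta subunits, 3 of 3 chaperones and 2 of 6 ATPases were higher in T, where 25% of all genes were. With matched cells the members called higher by role were 1 alpha subunit and 1 ATPase. Of the 28 listed partner genes tested, 10 were higher and 9 lower, against the same 25% and 28.6% of all genes, among them Sem1 (0.62), Zfand5 (0.98) and Vcp (0.77) as higher and Psmf1 (−1.67) and Ubqlnl (−3.85) as lower. With matched cells Zfand5 (0.94) was still called as higher and Psmf1 (−0.54) and Ubqlnl (−1.63) as lower, and no other listed partner gene was called. Psmf1 and Ubqlnl are among the genes that rose from spermatid-like to spermatozoa-like cells in the controls.

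Recovered testes were compared with the same UC libraries, so the values of T and R share their controls. In spermatogonia-like cells 0 of 41 tested members were called by edgeR (7 at an unadjusted p under 0.05, 0 by DESeq2), where edgeR called 0.392% and DESeq2 0.109% of all genes. In spermatocyte-like cells 0 of 40 were called by edgeR (12 at an unadjusted p under 0.05, 6 by DESeq2), where edgeR called 0.00716% and DESeq2 0.915% of all genes. The Psma8 share in spermatocyte-like cells was 88.0 to 88.7% in R, 85.1 to 85.8% in UC and 85.7 to 89.4% in VC-R, so R overlapped its vehicle group.

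In spermatid-like cells of R, 1 member was higher and 21 lower of 39 tested (edgeR), where 40.7% of all genes were called, 21.3% as higher and 19.4% as lower. None passed a log2 fold change of 1 in size, where 7.1% of all genes did. The lower members with the smallest p were Psmd8 (−0.44), Psmb6 (−0.45), the ATPase Psmc5 (−0.47), Psma6 (−0.44) and the beta subunit Psmb4 (−0.47). Psmb6 was 278, 308 and 267 CPM in R and 324, 335 and 357 CPM in UC, without overlap. Psmc3ip was also lower (−0.31). Psmc1 was higher (0.42), with 23.1, 23.8 and 24.9 CPM against 15.0, 14.6 and 16.9 CPM, but VC-R spanned 14.7 to 25.5 CPM and it was not called against VC-R (0.04). In R, 63.4 to 73.8% of the spermatid-like cells were in 3 clusters of low UMIs, against 11.7 to 19.8% in UC. Without those clusters 1 member was called of 38, Psmc1, where 7.63% of all genes were called. Library totals gave 5 higher and 7 lower, where 32.8% of all genes were higher and 6.45% lower.

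**Figure D5:**
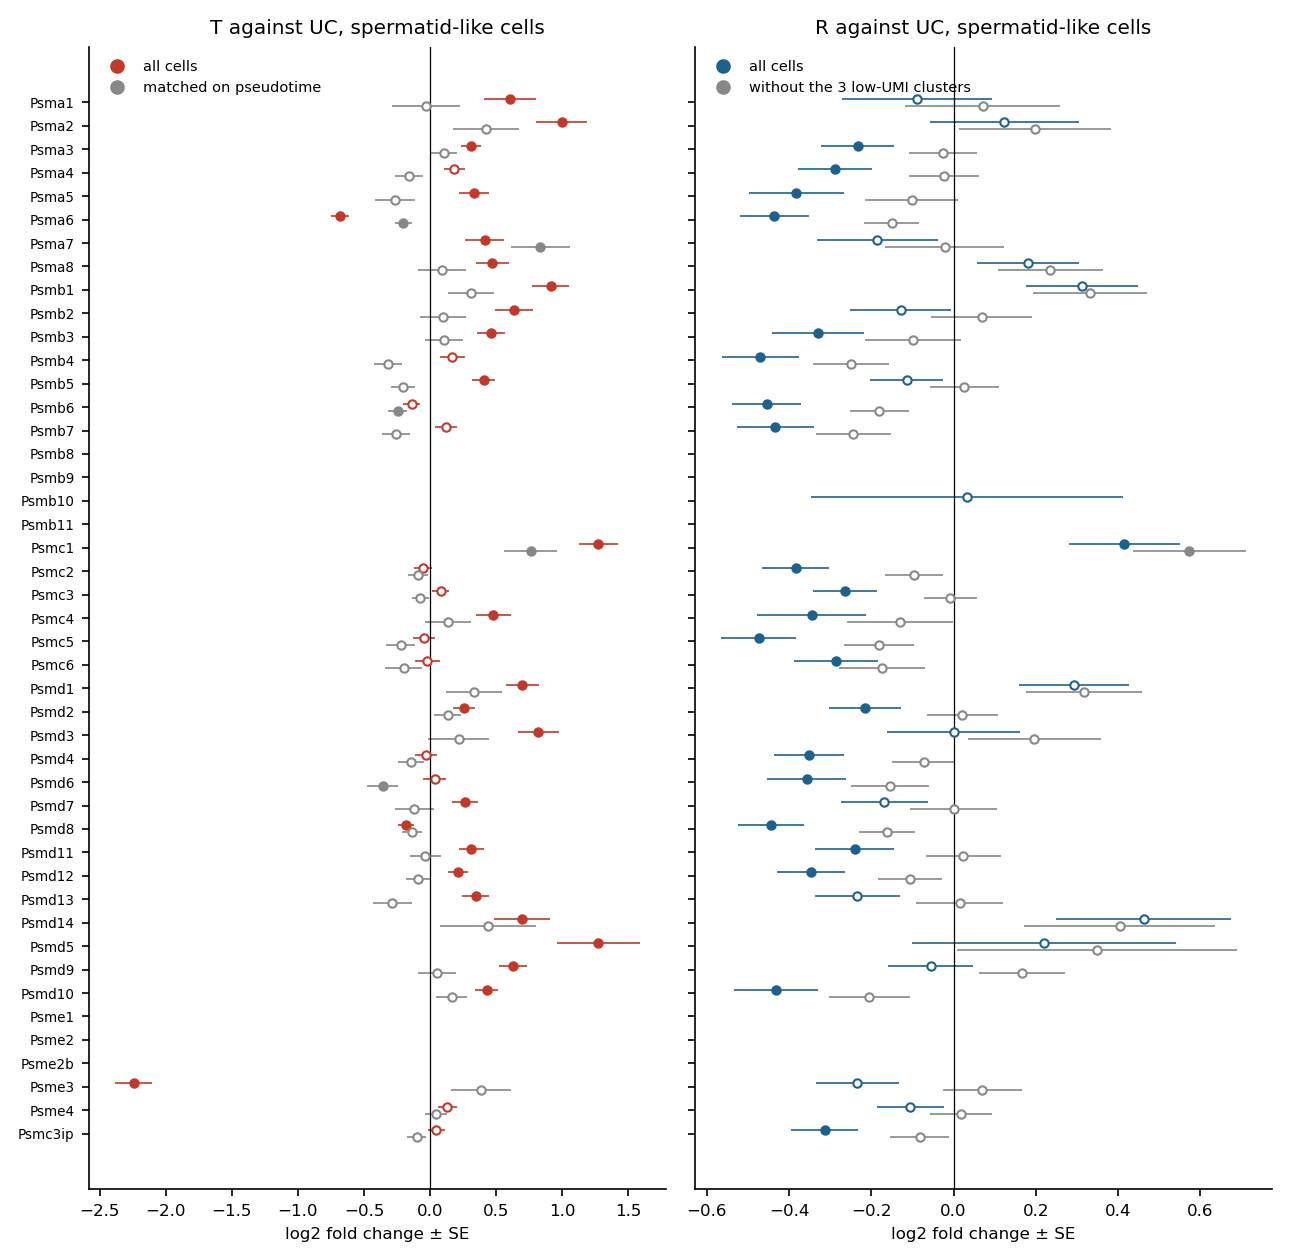
Log2 fold change ± SE of each member in spermatid-like cells, T against UC (left) and R against UC (right), filled points at adjusted p under 0.05. Grey points show cells matched on pseudotime (left) and the fit without 3 low-UMI clusters (right), where most members lie nearer 0 and Psme3 in T moves from −2.24 to 0.39.

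Of the partner genes in R, 3 were higher (Pomp 0.61, Rps27a 0.28, Nfe2l1 0.72) and 11 lower of 28, where 21.3% of all genes were higher and 19.4% lower, among them Psmf1 (−0.52) and Ddi1 (−0.42) as lower. Without the low-UMI clusters Rps27a (0.34) alone of the listed partner genes was called. In spermatozoa-like cells, which T lacked in testable number, 1 of 39 members was called in R, where 7.52% of all genes were. This was Psme3, at 92.6, 98.2 and 84.9 CPM in R and 104, 101 and 110 CPM in UC (log2 fold change −0.26, edgeR adjusted p = 0.0325), and against VC-R 0 members (6 at an unadjusted p under 0.05) and 0% of all genes were called by edgeR. The partner gene Sem1 (0.43) was higher there, and Psmf1 (−0.38) and Ddi1 (−0.27) lower.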

How the data were processed

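Single-cell RNA sequencing was performed by the authors on 15 testis libraries (10x 3′ chemistry). The authors deposited, for each cell barcode, the UMI counts of every gene as whole numbers without normalization, made with Cell Ranger on mm10; the methods and processing notes give version 3.0.0, and the matrix headers another. Whether intronic reads were counted is not given in the sources used here. The authors' corrections for ambient RNA and doublets came after these files. Gene positions were taken from GENCODE on GRCm38.

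Barcodes entered with a minimum of 1000 UMIs from 500 genes and a mitochondrial share below 30%, and the 5.4% with the highest doublet scores (Scrublet in scanpy 1.11.5) were removed per library, 4132 in all. Leiden clusters (2000 variable genes, 30 components, 20 neighbours, resolution 1.2) were named from marker lists, and 4176 cells stayed unnamed. Members, mitochondrial genes and outcome genes of the study were left out of the clustering genes. UMIs were summed per library and class with at least 10 cells and tested with edgeR 4.0.16 (R 4.3.3) after filterByExpr and TMM, adjusted over all genes tested. DESeq2 1.42.0, library totals, no filter, pseudotime matching, an ambient subtraction of 5%, vehicle controls and leaving out single libraries were the alternatives. In group comparisons the tests set a difference against the variation between libraries of different mice. In stage steps, with the library as a block, they set it against the variation left within mice.

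On simulated data for T against UC, 73.1% of 2-fold changes were recovered in spermatid-like, 78.4% in spermatocyte-like and 51.6% in spermatogonia-like cells, and 20.4, 28.6 and 7.29% of 1.5-fold changes. The changed genes were drawn from all genes that passed the count filter, with the same dispersion for every gene. Named genes were Psma7, Psma8, Psmb8 to Psmb11, Psme1 to Psme4 and Psmc3ip, up to 5 members per direction by smallest adjusted p (by largest fold in stage steps), and up to 3 listed partner genes per direction, some of which are not reported here. Members and lists were chosen with earlier results of these data known.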

Additional observations from a re-analysis of the deposited data

Results flagged for a closer look

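In 39 tests of a member's level over the 8 control libraries, 6 had a library far from the others, and chance flags about 1 in 20 such groups. In spermatocyte-like cells Psmb10 was 7.26 CPM in VC-R 2 (others 4.08 to 5.43) and Psme2 was 3.78 CPM in UC 1 (others 0.347 to 1.7). In spermatid-like cells Psmb11 was 0.639 CPM in UC 1 (others up to 0.293). In spermatozoa-like cells VC-R 1 had 2.1 CPM of Psmb10 (others 0.649 to 1.3) and 1.35 CPM of Psme2 (others 0.13 to 0.647), and VC-R 2 had 72.7 CPM of Psme3 (others 101 to 110). Only the Psme3 value lies well above a few CPM.

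In 16 of 405 pairs of germ cell classes, every library of a treated group lay on one side of UC in one class and on the other side in the other class. The share of such pairs over all genes was not counted, so the number is not read as a result about the members. The differences between classes were not tested, and values are log2 ratios of mean CPM. For T, Psma4 was below UC in spermatogonia-like cells (−0.392) and above it in spermatocyte-like (0.198) and spermatid-like cells (0.473). Psmb7 (−0.165 and 0.403), Psmb4 (−0.277 and 0.475) and Psma5 (−0.607 and 0.608) were below in spermatogonia-like and above in spermatid-like cells. Psma1 (−0.197 and 0.921) and Psmb5 (−0.172 and 0.705) were below in spermatocyte-like and above in spermatid-like cells. In the TMM fit of spermatid-like cells Psma4 (0.18), Psmb7 (0.12) and Psmb4 (0.17) were not called. Psma5 (0.33), Psma1 (0.60) and Psmb5 (0.40) were called there as higher, but not with matched cells. No member was called by edgeR in the 2 earlier classes.

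For R, Psmd8 was above UC in spermatogonia-like cells (0.368) and below it in the later classes (−0.128 in spermatocyte-like cells, −0.242 in spermatid-like cells and −0.139 in spermatozoa-like cells). Psmb1 was below in spermatogonia-like (−0.303) and above in spermatid-like cells (0.502), and Psmb2 below in spermatogonia-like (−0.395) and above in spermatozoa-like cells (0.315). Psma7 (−0.256 and 0.393) and Psmb3 (−0.276 and 0.253) were below in spermatocyte-like and above in spermatozoa-like cells. Psmb7 (−0.24 and 0.407) and Psmd10 (−0.236 and 0.372) were below in spermatid-like and above in spermatozoa-like cells. Of these values for R, edgeR with TMM called only the lower ones of Psmd8, Psmb7 and Psmd10 in spermatid-like cells. None was called there without the low-UMI clusters.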

How the results depend on the processing

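Counts of called members stayed within 1.5 times of the reported count under 125 alternatives and left that range under 26. The share of all genes called moved as well, for T in spermatid-like cells from 53.6% to 0% against all VC-T. That share was counted for only some alternatives, so the counts below are not read as results about the members alone. The 0 of T in spermatocyte-like cells became 1 with DESeq2, 1 with matched cells, 2 with all groups fitted together and 2 against VC-T 2 and VC-T 3. The 0 of R in spermatocyte-like cells became 6 with DESeq2 and 2 with matched cells. The 26 of T in spermatid-like cells became 16 with DESeq2, 5 with matched cells and 0 against all VC-T, and 17 to 25 with 1 library left out (17 without UC 2). The 22 of R in spermatid-like cells became 12 with library totals, 14 with matched cells, 10 against VC-R and 1 without the low-UMI clusters, an alternative chosen after seeing the data, and 14 to 22 with 1 library left out (14 without R 3). The single call of R in spermatozoa-like cells became 2 with DESeq2, 0 without the count filter, with all groups fitted together, with matched cells and against VC-R, and 0 to 5 with 1 library left out (0 without R 1, R 3, UC 1 or UC 2, and 5 without UC 3). The replicate block gave 3 there, 26 for T and 24 for R in spermatid-like cells. Replicate numbers were not taken to pair the mice. The correlations of same-numbered libraries in spermatocyte-like cells were 0.64, 0.40 and 0.09 for T and UC, and −0.33, −0.42 and 0.05 for R and UC. With 3 libraries per group they cannot decide whether mice were paired. Matching also left fewer cells (317 per library for T in spermatid-like cells) and fewer genes tested. Otherwise the cause of these changes was not tested. In T and R against UC, no direction of Psma7, Psma8 or Psme4 that passed the test reversed. Between spermatid-like and spermatozoa-like cells, Psme4 was called as rising under TMM (1.10) and as falling with library totals (−0.42). Dropping a cluster with Spag6 among its leading genes, also chosen after seeing the data, gave 28 for T and 23 for R in spermatid-like cells. In simulated data for spermatogonia-like cells 7.29% of 1.5-fold changes were recovered. The changed genes there were drawn from all genes tested, so this share is not one for the members. Recovery for the members was not simulated.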
